A study of Homo sapiens with 12 samples.

Results

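HCT-116 colon cancer cells that had received lovastatin and then CPT-11 were compared with untreated HCT-116 cells, gene by gene, by RNA sequencing. HCT-116 is an established human colon carcinoma line with defective mismatch repair. The comparison used 6 of the 12 libraries of the series, chosen by their labels alone. Of these, 3 came from wild-type cells that were untreated and 3 from wild-type cells pretreated with lovastatin for 4 h and given CPT-11 for 24 h. A further 3 libraries, from wild-type cells given CPT-11 alone for 24 h, are set beside them. The other 3 libraries, from SHP2-silenced cells that also received drug, entered only the estimate of spread named below. Drug doses were not stated in the labels, and none of the 12 samples had lovastatin without CPT-11. Each difference from untreated cells therefore combines both drugs. One general line of the protocols says that all cells received CPT-11, and the label of each sample was followed in its place.

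CPT-11 (irinotecan) is a prodrug that carboxylesterases convert into an inhibitor of topoisomerase I, the enzyme that relaxes DNA ahead of polymerases. The drug traps the enzyme on DNA, and replication forks and transcribing polymerases that meet it cause breaks. Breaks activate the kinases ATM and ATR and the transcription factor p53, which turns on genes of growth arrest, repair and cell death. Lovastatin blocks the mevalonate pathway at an early step; the pathway makes cholesterol and the isoprenoid tails of small GTPases. When sterols fall, the membrane-bound factor SREBF2 is cleaved and turns on the genes of cholesterol synthesis and uptake. DNA in the cytosol is sensed by CGAS, which signals through STING (TMEM173 in these files) to interferon and NF-kB genes.

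Values are FPKM, fragments per kilobase of gene model, as deposited. Their scaling followed size factors, the median over genes of a library's reads relative to the mean library, and not library totals. Deposited scaling over size factor was 0.999 to 1.002 of its mean in the 12 libraries. Differences are on the log2(FPKM + 1) scale with a standard error from 3 against 3 libraries, and a gene was called when its limma p-value, adjusted by Benjamini-Hochberg over all genes tested, was below 0.05. "Rose" and "fell" are used of called genes only. The 6 libraries held 14715553 to 16224271 reads assigned to genes. Replicates resembled each other closely, with Pearson correlations across genes of at least 0.99 within both groups. Nothing in the labels says that the replicates were separate cultures, so the p-values measure the spread between these libraries, which may be technical.

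The cell line was checked against marker genes. The summed level of 9 colon epithelial markers was 847.5 to 941.2 FPKM in untreated and 1140 to 1220 FPKM in treated libraries, with KRT8, KRT18, KRT19 and EPCAM making up most of it. CDX1, VIL1 and CDH17, markers of differentiated intestine, were near 0 in every library. Of 8 fibroblast markers, summed at 6.84 to 7.17 FPKM before and 8.38 to 8.64 FPKM after treatment, 4 had enough reads to test, 2 rose and 1 fell, and LUM was listed at 0 throughout. The 5 endothelial markers summed to at most 0.381 FPKM and the 7 blood cell markers to at most 1.59 FPKM, where ITGAM was the member that rose.

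Lovastatin plus CPT-11 changed 5922 of 16954 genes tested (34.9%). Of these, 3001 rose (17.7%) and 2921 fell (17.2%). Rises were larger than falls: 208 genes rose at least 2-fold (1.23%) and 43 fell at least 2-fold (0.254%). These counts were 582 and 134 with 0.1 in place of 1 added to FPKM, and 769 and 176 with voom on recovered reads. The libraries of both groups did not overlap for 8295 genes (48.9%). The near balance depended on the scaling of the libraries, and scaling by size factors places the typical gene near 0. Scaled to library totals, 3676 genes rose and 2202 fell, so that 62.5% of calls were rises against 50.7% as deposited, and the median over all genes moved from -0.001 to 0.039. Without untreated replicate 2 the counts were 2152 and 1932. Among 13368 protein-coding genes tested, 2626 rose and 2571 fell.

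**Figure D1:**
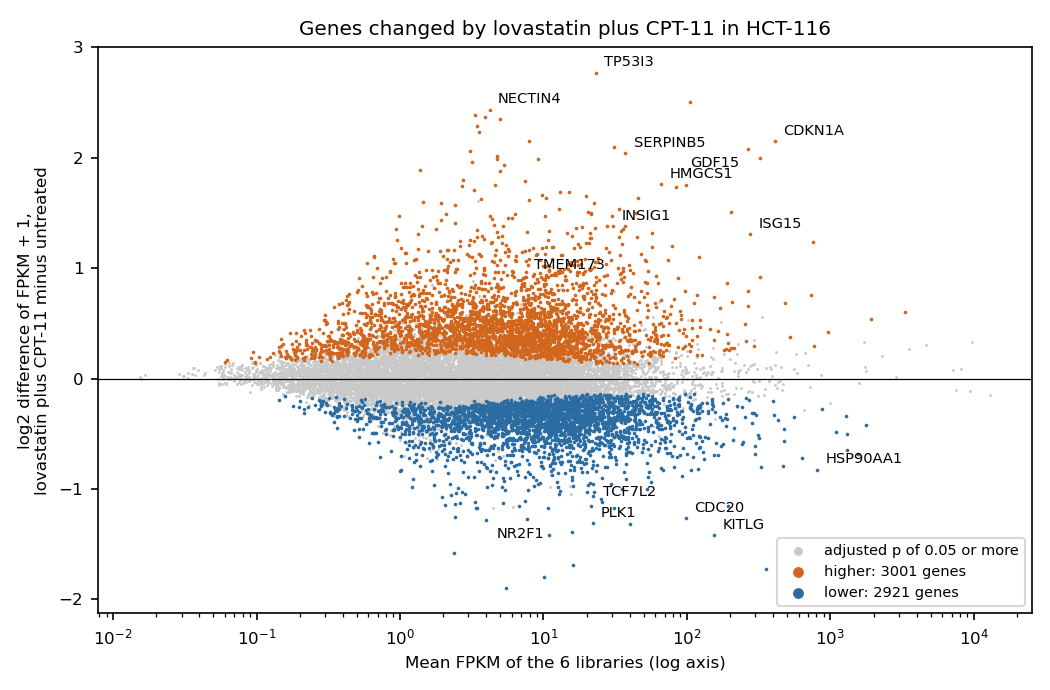
Each point is one of 16954 genes tested; the horizontal axis is the mean FPKM of the 6 libraries on a log axis, and the vertical axis is the log2 difference of FPKM + 1 (lovastatin plus CPT-11 minus untreated). Orange points rose (3001 genes), blue points fell (2921 genes) and grey points were not called; the rises reach further from 0 than the falls.

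By a fixed rule, the 12 protein-coding genes with the largest rises were TP53I3, NECTIN4, SORCS2, PTAFR, EBI3, LGALS7B, CD82, CDKN1A, TP53INP1, GDF15, CEACAM1 and SERPINB5. Their rises ran from 2.04 to 2.77 ± 0.09 on the log2 scale. TP53I3, a p53-induced quinone oxidoreductase, led at 6.04, 4.99 and 4.57 FPKM in untreated and 44.2, 40.4 and 38.9 FPKM in treated libraries (adjusted p = 9.7e-06). NECTIN4, an adhesion protein of epithelial tumours, rose from 0.6904, 0.522 and 0.677 FPKM to 7.798, 8.18 and 7.46 FPKM. SORCS2, a sorting receptor of the Vps10 family, rose from 0.328, 0.409 and 0.429 FPKM to 5.93, 6.59 and 6.25 FPKM. For NECTIN4 and SORCS2 every untreated library lay below 1 FPKM. The rule admitted only genes whose groups did not overlap. PTAFR, the receptor of platelet-activating factor, stood at 0.558, 0.442 and 0.792 FPKM before and 7.62, 6.95 and 7.05 FPKM after treatment. EBI3, a cytokine subunit shared by IL-27 and IL-35, went from 0.6995, 0.983 and 1.21 FPKM to 8.92, 8.86 and 9.19 FPKM. SERPINB5, the serpin maspin, had the tightest replicates of the 12, at 13.5, 14.3 and 14.2 FPKM and 61.4, 59.7 and 60.7 FPKM. LGALS7B (1.395, 0.4898 and 0.105 FPKM before, 7.04, 6.66 and 5.68 FPKM after) shares nearly all its sequence with LGALS7, so its value is uncertain.

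The 12 largest falls among protein-coding genes were KITLG, NR2F1, ARHGAP18, PLK1, CDC20, CENPF, SYT1, TCF7L2, PCDH7, DLGAP5, BUB1B and TEAD1, from -1.42 ± 0.07 to -1.03 ± 0.07 on the log2 scale. KITLG, the ligand of the KIT receptor, dropped from 205, 228 and 245 FPKM to 84.1, 80.9 and 86.3 FPKM (adjusted p = 2.8e-05). NR2F1, an orphan nuclear receptor, went from 24.9, 22.8 and 22.03 FPKM to 8.08, 8.23 and 8.41 FPKM. TCF7L2, the main partner of beta-catenin in the gut, went from 29.6, 30.6 and 29.8 FPKM to 12.4, 12.8 and 13.5 FPKM. Separate groups were a condition of the rule for these 12 genes, so that the lack of overlap is no added result. PLK1, CDC20, CENPF, DLGAP5 and BUB1B act in mitosis. With CPT-11 alone, KITLG stood at 126, 127 and 95.4 FPKM, NR2F1 at 8.93, 7.71 and 8.98 FPKM and TCF7L2 at 16.4, 14.5 and 13.6 FPKM, each below every untreated library.

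Genes of cholesterol synthesis rose nearly along the whole pathway, and CPT-11 alone did not raise most of them. Of 9 enzymes from acetyl-CoA to squalene, 8 rose and none fell, with a median difference of 1.20 against -0.05 for the same genes with CPT-11 alone. Of 12 enzymes from squalene to cholesterol, 11 rose and 1 fell, with a median of 0.98 against -0.09. Over all genes tested, 17.7% rose and 17.2% fell, with a median of -0.001. These lists were written with earlier results of these data known and are descriptions.

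HMGCS1, HMG-CoA synthase, stood at 28.1, 29.9 and 30.96 FPKM in untreated libraries, 29.7, 31.2 and 25.2 FPKM with CPT-11 alone and 105, 101 and 103 FPKM with lovastatin plus CPT-11. It was the largest rise among the 9 enzymes up to squalene, 1.76 ± 0.05 (adjusted p = 6.7e-06), and the CPT-11 alone libraries lay around the untreated ones. IDI1, which isomerises the first isoprenoid unit, rose from 18.7, 19.4 and 21.1 FPKM to 53.1, 50.4 and 52.5 FPKM. MVD, the decarboxylase that makes that unit, rose from 20.9, 20.1 and 17.2 FPKM to 56.97, 49.6 and 44.7 FPKM. FDPS, farnesyl diphosphate synthase at the branch to prenyl groups, rose from 18.4, 17.9 and 16.2 FPKM to 39.5, 39.8 and 40.5 FPKM, and FDFT1, squalene synthase, from 35.2, 33.98 and 33.5 FPKM to 84.6, 75.4 and 79.4 FPKM. ACAT2 and MVK rose by 1.37 and 1.06. PMVK, phosphomevalonate kinase, was the member of the 9 that was not called, at 0.34.

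Beyond squalene, MSMO1, a methyl sterol oxidase, rose from 30.6, 33.7 and 32.5 FPKM to 84.3, 82.5 and 79.7 FPKM. LSS, which closes the sterol rings, rose from 14.8, 13.9 and 13.4 FPKM to 30.1, 28.6 and 28.02 FPKM, and DHCR7, which makes cholesterol from its last precursor, from 29.4, 28.99 and 26.2 FPKM to 56.5, 55.9 and 54.3 FPKM. For both, the CPT-11 alone libraries lay below the untreated ones, at 9.78, 8.63 and 12.6 FPKM for LSS and 19.4, 20.4 and 24.2 FPKM for DHCR7. HSD17B7, a sterol ketoreductase, rose from 4.29, 4.61 and 4.72 FPKM to 11.5, 11.2 and 11.5 FPKM. TM7SF2 rose by 1.501, CYP51A1 by 1.27, NSDHL by 0.99, EBP by 0.85, SC5D by 0.64 and SQLE, the epoxidase that is a second control point of the pathway, by 0.47. The member that fell was LBR (-0.49), a sterol reductase that is also a lamin B receptor of the nuclear envelope.

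**Figure D2:**
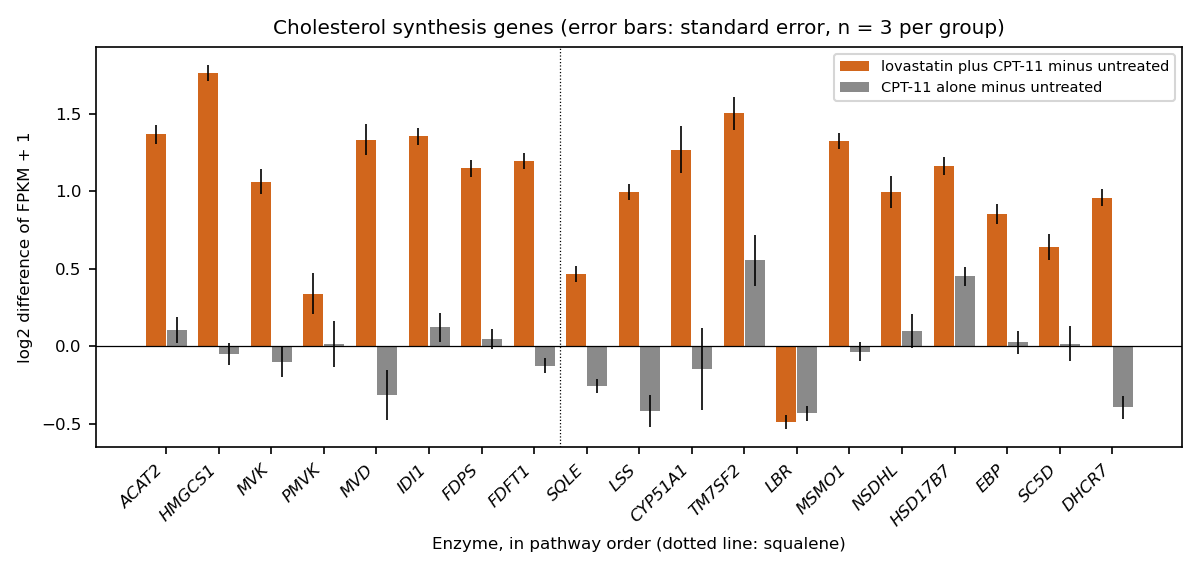
Bars give the log2 difference of FPKM + 1 for 19 enzymes in pathway order, from lovastatin plus CPT-11 minus untreated (orange) and CPT-11 alone minus untreated (grey); error bars are standard errors with 3 libraries per group. The orange bars are above 0 for every gene other than LBR, while most grey bars lie near or below 0.

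Part of the sterol sensing and LDL uptake genes rose as well. Of 19 genes of SREBP control and LDL uptake, 10 rose and 1 fell, with a median of 0.24. INSIG1, which retains SREBP in the endoplasmic reticulum and is itself induced by it, rose from 15.6, 16.7 and 17.2 FPKM to 44.9, 44.5 and 44.1 FPKM (1.38 ± 0.05, adjusted p = 1.2e-05). The CPT-11 alone libraries of INSIG1, at 13.1, 12.7 and 11.9 FPKM, lay below the untreated ones. STARD4, a cholesterol carrier, rose from 10.6, 12.01 and 12 FPKM to 28.2, 28.2 and 28.5 FPKM. The factors themselves moved little. SREBF2 rose from 40.6, 37.6 and 36.6 FPKM to 45.8, 46.3 and 43.9 FPKM (0.24 ± 0.05, adjusted p = 0.012), a call that was lost under some of the other settings tried, and SREBF1 was not called (-0.16 ± 0.05, adjusted p = 0.057). The fall was MBTPS2 (-0.23), a protease that releases SREBP from the membrane, a call lost with scaling to library totals, over all 12 libraries and when any of the 6 libraries other than untreated replicate 1 was left out.

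Fatty acid synthesis rose in part. Of 19 genes tested, 10 rose and 3 fell, with a median of 0.35 against -0.11 with CPT-11 alone; MVD and LPIN1 also stand in other lists. ACSS2, which makes acetyl-CoA from acetate, rose from 12.4, 12.1 and 11.6 FPKM to 29.9, 30.6 and 31.03 FPKM (1.28 ± 0.05). SCD, the stearoyl-CoA desaturase, stood at 208, 203 and 209 FPKM in untreated libraries, 141, 145 and 139 FPKM with CPT-11 alone and 319, 325 and 339 FPKM with both drugs. The 3 groups of SCD were fully apart, with CPT-11 alone lowest and the combined treatment highest. FASN rose by 0.69 and FADS1 by 0.56, and ACACA (-0.23), GPAM (-0.29) and ACSL3 (-0.46) fell, with the call of ACACA lost with scaling to library totals and that of GPAM with the GC and length correction. Of 10 LXR targets and efflux genes tested, 2 rose and none fell (20% called, against 34.9% of all genes). The rises were 1 without untreated replicate 1 or 2 or treated replicate 1 or 2, and 0 with no filter. ABCA1, the cholesterol exporter, rose from 0.457, 0.233 and 0.328 FPKM to 0.852, 1.28 and 0.879 FPKM, with CPT-11 alone higher still at 1.58, 1.58 and 1.51 FPKM; its call was lost with no filter.

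Genes of the isoprenoid branch were called about as often as all genes, 36.8% against 34.9%. Of 19 prenyl branch genes, FDPS and RABGGTA rose and 5 fell, a count of falls that was 2 without untreated replicate 2 or without treated replicate 2 and 3 without untreated replicate 3. RHOA, the small GTPase that controls actin tension, fell from 278, 300.5 and 303 FPKM to 203, 192 and 196 FPKM (-0.57 ± 0.06, adjusted p = 0.0004), and RHOD rose from 24.5, 21.9 and 16.4 FPKM to 56.7, 46.3 and 46.1 FPKM. RHOB, often induced by statins in other cells, was at 134, 126 and 115 FPKM before and 126, 122 and 112 FPKM after treatment, with overlapping groups (-0.05 ± 0.07, adjusted p = 0.61, above 0 when scaled to library totals). Of 13 KLF factors 2 rose and 2 fell, 15.4% each, near the 17.7% and 17.2% of all genes. Without untreated replicate 1 there were 4 falls. KLF2, another gene known to respond to statins in endothelium, fell from 54.3, 47.5 and 38.1 FPKM to 31.9, 31.4 and 28.3 FPKM (-0.58 ± 0.12, adjusted p = 0.0084), with CPT-11 alone at 17.8, 17.6 and 29.4 FPKM. KLF4 rose by 0.39 (adjusted p = 0.02) and lost its call under some settings, KLF5 rose by 0.22, and KLF6 was not called at 0.11.

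Promoters of the sterol genes were read for motifs, because these genes moved together. The windows held 250 bases before to 50 after the start (RefSeq, GRCh38.p14), and both strands were searched. The sterol response motif TCACNCCAC was found in 1 of 31 promoters of the sterol lists (3.23%) and in 115 of 10765 promoters of all protein-coding genes tested (1.07%). That promoter was of SREBF2, where the motif begins 133 bases before the start. Promoters were given for 6 of the 9 enzymes up to squalene, 10 of the 12 later enzymes and 15 of the 19 SREBP control genes. CCAAT, the site read by NF-Y, was found in 20 of 31 (64.5%) against 36.5% of all. The 250 bases before the start are shown for SREBF2, which holds the sterol motif, and HMGCS1, the largest rise of the enzymes up to squalene. Of these motifs as spelled, HMGCS1 matched only CCAAT, read as ATTGG from the other strand. Capitals mark the matches. SREBF2 lies at chr22:41832855-41833104 on the plus strand and HMGCS1 at chr5:43313413-43313662 on the minus strand.
SREBF2: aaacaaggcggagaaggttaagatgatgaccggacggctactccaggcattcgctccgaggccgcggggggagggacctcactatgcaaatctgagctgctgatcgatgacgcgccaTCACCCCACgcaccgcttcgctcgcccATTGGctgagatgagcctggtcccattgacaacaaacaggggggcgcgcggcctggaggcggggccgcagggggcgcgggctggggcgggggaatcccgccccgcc
HMGCS1: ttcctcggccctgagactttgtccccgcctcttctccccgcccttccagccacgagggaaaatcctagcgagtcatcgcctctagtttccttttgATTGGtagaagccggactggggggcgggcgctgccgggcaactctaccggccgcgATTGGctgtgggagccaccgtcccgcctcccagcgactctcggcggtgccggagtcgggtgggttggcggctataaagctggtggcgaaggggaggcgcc
A match is a description of letters, and no binding was measured here. A site spelled otherwise or outside the window would be missed, so the lack of a match does not show that a site is absent.

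Genes that p53 is known to activate rose in nearly every list of them. Of 14 growth arrest targets tested, 14 rose, with a median of 1.03. Of 16 cell death targets, 15 rose and none fell (median 0.90), and of 16 targets of metabolism and autophagy, 14 rose and none fell (median 0.96). Of 11 repair targets 7 rose and 3 fell, and of 10 feedback and sensing genes 6 rose and 1 fell. A few genes stand in several of these lists. With CPT-11 alone the medians were 0.98, 0.60, 0.69, 0.96 and 0.38 in the same order, the 0.69 over 18 members tested there. Compared directly with CPT-11 alone over all 12 libraries, the median differences were 0.32, 0.23, 0.22, -0.04 and -0.01.

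Among arrest genes, CDKN1A, the CDK inhibitor p21, stood at 156, 154 and 142 FPKM in untreated libraries, 495, 483 and 592 FPKM with CPT-11 alone and 704, 679 and 636 FPKM with both drugs (2.15 ± 0.07 over untreated, adjusted p = 9.7e-06). GDF15, a secreted stress cytokine, rose from 117, 95.4 and 94.1 FPKM to 465, 435 and 404 FPKM. SFN, the 14-3-3 sigma protein that holds CDK1 in the cytoplasm, rose from 140.4, 128 and 119.8 FPKM to 553, 511 and 493 FPKM. All of them were abundant before treatment, and their treated libraries lay far above the untreated ones. BTG2, an antiproliferative deadenylase cofactor, rose from 23.4, 21.3 and 20.4 FPKM to 70.6, 67.2 and 70.5 FPKM. GADD45A, which inhibits CDK1 and aids repair, rose from 32.9, 29.1 and 27.4 FPKM to 71.6, 63.02 and 63.8 FPKM. PLK3 rose by 1.54, SERTAD1 by 1.51, ZMAT3 by 0.94 and E2F7, a repressor of cell cycle genes, by 0.70.

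Feedback genes rose as well. MDM2, the ligase that degrades p53, stood at 18.3, 20.6 and 21.4 FPKM before and 50.95, 54.2 and 56.3 FPKM after treatment (1.38 ± 0.07), with CPT-11 alone at 67.5, 65.95 and 49.4 FPKM. PPM1D, the phosphatase WIP1, rose from 11.5, 11.97 and 13.01 FPKM to 31.5, 29.4 and 31.5 FPKM, with CPT-11 alone at 36.3, 35.8 and 31.7 FPKM. TP53INP1, a p53-induced autophagy protein, rose from 11.4, 11.2 and 10.8 FPKM to 49.7, 49.03 and 53.7 FPKM. COP1, another ligase for p53, was the member that fell (-0.31).

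In the repair list, DDB2, which recognises helix-distorting damage, rose from 13.6, 11.6 and 11.7 FPKM to 33.4, 32.5 and 33.4 FPKM, and XPC, its partner, from 9.98, 9.598 and 9.57 FPKM to 19.5, 22.6 and 21.9 FPKM. RRM2B, the p53-inducible subunit of ribonucleotide reductase, rose from 23.9, 26.6 and 26.97 FPKM to 53.8, 50.97 and 56.2 FPKM. POLH, the lesion bypass polymerase, rose by 0.84 and PCNA, the sliding clamp, by 0.79. The members that fell were XRCC5, the Ku80 subunit of end joining (-0.69), FANCC (-0.39) and the bypass polymerase POLK (-0.32), whose call was lost over all 12 libraries and under other settings; that of FANCC was lost with no filter and without treated replicate 2.

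In the death list, FAS, a death receptor, rose from 5.18, 5.71 and 6.37 FPKM to 15.6, 16.6 and 16.01 FPKM, and TNFRSF10B, the TRAIL receptor DR5, from 39.3, 35.7 and 36.9 FPKM to 69.3, 68.3 and 67.9 FPKM. PMAIP1 (NOXA), a BH3-only protein, rose from 46.1, 49.1 and 46.5 FPKM to 104, 98.6 and 98.8 FPKM. BBC3 (PUMA), another BH3-only protein, stood at 9.602, 9.03 and 7.63 FPKM in untreated libraries, 12.1, 9.14 and 21.4 FPKM with CPT-11 alone and 25.6, 23 and 20.1 FPKM with both drugs. Replicates 1 and 2 of CPT-11 alone lay nearer the untreated libraries, and replicate 3 lay within the range of the combined treatment. BAX rose by 0.94, and BAK1, its relative in the mitochondrial membrane, rose from 13.3, 13.5 and 11.1 FPKM to 25.1, 24.1 and 21.4 FPKM. Of 33 BCL2 family and death genes in all, 16 rose and 1 fell. BIK rose from 15.9, 15.03 and 13.9 FPKM to 35.5, 33.6 and 29.8 FPKM, and MCL1, a survival member, rose by 0.32. BCL2L1 (-0.002) and BCL2 (-0.05) were not called, and CASP2 was the fall (-0.25).

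For metabolism and autophagy, CD82, a tetraspanin, rose from 2.52, 1.99 and 2.29 FPKM to 14.6, 13.8 and 12.3 FPKM, and FDXR, the mitochondrial ferredoxin reductase, from 41.2, 36.3 and 37.01 FPKM to 141, 126 and 122 FPKM. SESN2, a sestrin that restrains mTORC1, rose from 11.2, 10.8 and 9.55 FPKM to 22.1, 23.3 and 21.8 FPKM, and FUCA1, a lysosomal fucosidase, from 16.2, 18.2 and 18.04 FPKM to 36.3, 37.8 and 36.6 FPKM. TIGAR (0.16) and CPT1C (0.26) were not called.

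**Figure D3:**
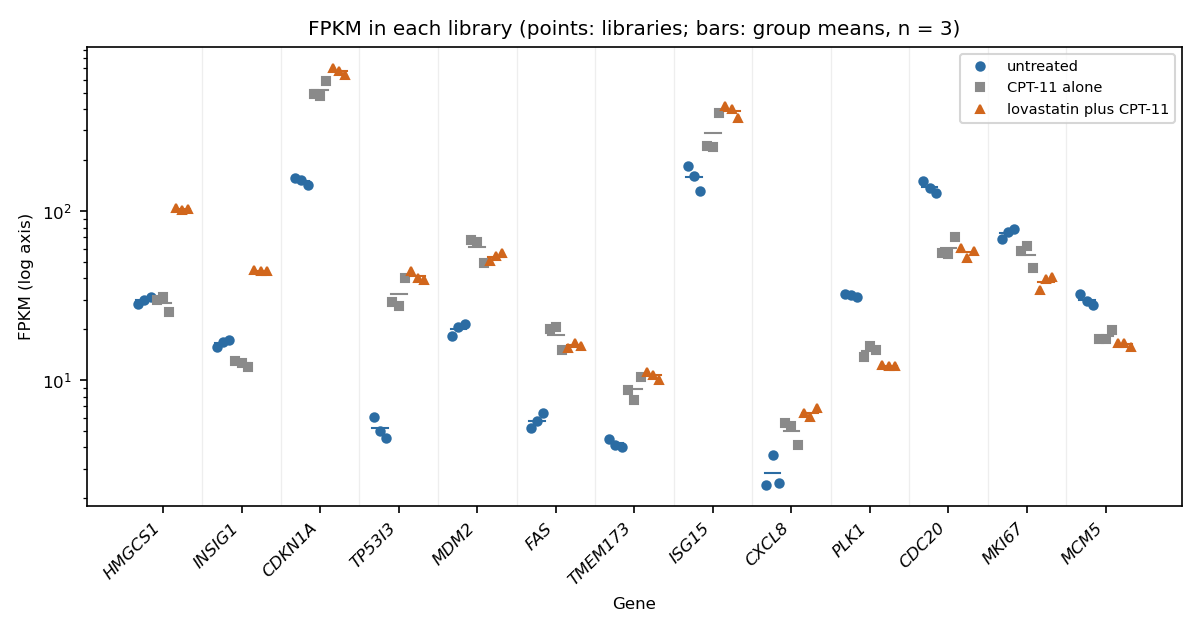
FPKM of 13 genes in each library on a log axis, for untreated cells (blue circles), CPT-11 alone (grey squares) and lovastatin plus CPT-11 (orange triangles), with 3 libraries per group and a bar at each group mean. HMGCS1 and INSIG1 are high only in the orange group, whereas for CDKN1A, TP53I3, MDM2, PLK1 and CDC20 the grey points lie with or near the orange ones.

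Mitotic genes had the highest share of falls among the gene lists described here. Of 41 genes of G2/M and mitosis, 35 fell and 1 rose, with a median of -0.62 against -0.36 with CPT-11 alone. PLK1, the kinase that drives mitotic entry, fell from 32.5, 31.8 and 31.1 FPKM to 12.4, 12.1 and 12.2 FPKM (-1.31 ± 0.04, adjusted p = 9.7e-06). CDC20, which switches on the anaphase-promoting complex at metaphase, fell from 151, 138 and 129 FPKM to 60.3, 53.1 and 58.3 FPKM (-1.27 ± 0.07). The CPT-11 alone libraries stood at 13.7, 15.97 and 15.2 FPKM for PLK1 and 56.3, 55.9 and 70.5 FPKM for CDC20, close to the combined treatment. BUB1, a spindle checkpoint kinase, fell from 25.9, 27.1 and 28.7 FPKM to 12.9, 12.6 and 13.2 FPKM. TPX2, which activates AURKA on the spindle, fell from 97.7, 106 and 108 FPKM to 58.1, 59.3 and 59.95 FPKM. CCNB1, cyclin B1, fell from 82.6, 89.9 and 89.4 FPKM to 51.2, 48.7 and 46.5 FPKM. MKI67, the proliferation marker, fell from 68.3, 74.8 and 78.9 FPKM to 34.4, 39.6 and 41.02 FPKM, with CPT-11 alone at 57.8, 62 and 46.2 FPKM, between both groups. CENPF, a kinetochore protein, fell from 38.1, 44.4 and 47.1 FPKM to 17.1, 18.6 and 19.9 FPKM. The rise was CDK1 (0.15), the kinase that cyclin B1 activates, a call that was lost over all 12 libraries and when any of the 6 libraries was left out. BUB3, CDC25C, PRC1, NUSAP1 and AURKB, from -0.27 to -0.07, were not called. In bulk RNA, fewer cells in mitosis and less RNA of these genes per cell cannot be told apart.

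The promoters of the mitotic list were searched for CCAAT and for the cell cycle homology region (CHR), spelled TTTGAA or TTCGAA, which the DREAM and MuvB complexes read. Of 34 promoters given, 20 held both motifs (58.8%), against 498 of 10765 promoters of protein-coding genes tested (4.63%). CHR, with or without CCAAT, was in 24 (70.6% against 1186 of 10765) and CCAAT in 26 (76.5% against 36.5%). Of 38 promoters of the replication list, 2 held both (5.26%). The 20 mitotic genes with both motifs had a median difference of -0.72, with 17 that fell, and the 14 without both a median of -0.58, with 12 that fell. PLK1 (chr16:23678639-23678888, plus strand) and CDC20 (chr1:43358731-43358980, plus strand) are shown because they are the largest falls of the list and hold both motifs close to the start. Capitals mark CHR and CCAAT matches, where TTCAAA is CHR read from the other strand.
PLK1: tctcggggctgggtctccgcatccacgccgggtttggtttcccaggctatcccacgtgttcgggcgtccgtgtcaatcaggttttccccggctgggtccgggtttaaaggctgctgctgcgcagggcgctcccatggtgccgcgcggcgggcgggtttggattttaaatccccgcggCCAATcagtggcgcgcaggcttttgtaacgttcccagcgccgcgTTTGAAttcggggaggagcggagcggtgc
CDC20: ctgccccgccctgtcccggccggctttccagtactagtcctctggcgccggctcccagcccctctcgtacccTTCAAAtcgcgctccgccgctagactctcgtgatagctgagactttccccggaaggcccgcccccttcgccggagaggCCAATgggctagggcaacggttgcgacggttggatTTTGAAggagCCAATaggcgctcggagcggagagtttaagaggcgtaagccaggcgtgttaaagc
In PLK1 the CHR match begins 29 bases and CCAAT 73 bases before the start, and in CDC20 the nearer CHR match begins 65 bases before it.

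Replication genes fell less far. Of 44 genes of DNA replication and E2F targets, 27 fell and 3 rose, with a median of -0.26 against -0.06 with CPT-11 alone. The replicative helicase subunits fell together. MCM5 went from 32.2, 29.4 and 27.99 FPKM to 16.5, 16.7 and 15.6 FPKM (-0.83 ± 0.06), MCM4 from 56.96, 61.7 and 61.6 FPKM to 36.99, 37.02 and 38.4 FPKM, MCM7 from 117, 109.7 and 107 FPKM to 71.1, 65.6 and 68.7 FPKM and MCM3 from 84.2, 83.2 and 87.05 FPKM to 56.3, 54.5 and 58.7 FPKM. POLA1, the catalytic subunit of the priming polymerase, had the largest fall of the list (-0.92). The rises were CCNE1 (0.48), cyclin E1 of S phase entry, GINS4 (0.23) and FEN1 (0.21), a flap nuclease, where FEN1 and GINS4 lost the call without untreated replicate 2, and GINS4 also without 3 other libraries in turn. Of 16 genes of the G1 cyclins, CDK4/6 and RB family, 4 rose and 5 fell, and the falls were 3 without untreated replicate 2 or without treated replicate 2. CDKN2D, an inhibitor of CDK4 and CDK6, rose from 5.61, 5.92 and 5.499 FPKM to 10.5, 9.55 and 9.41 FPKM, and RBL1, the p107 pocket protein, fell from 6.01, 6.47 and 6.97 FPKM to 3.91, 3.26 and 4.33 FPKM.

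Repair and checkpoint genes outside the p53 lists fell or were not called, apart from a pair of rises. Of 31 genes of homologous recombination and the Fanconi pathway, 10 fell (32.3%, against 17.2% of all genes) and none rose (against 17.7%). With the GC and length correction 7 fell and 1 rose, and over the settings tried 7 to 12 fell. FANCA fell from 13.1, 12.98 and 13.4 FPKM to 8.798, 9.64 and 9.595 FPKM, and RBBP8 (CtIP), which starts end resection, from 19.4, 22.2 and 24.1 FPKM to 13.6, 13.98 and 14.03 FPKM, with CPT-11 alone at 23.7, 24.4 and 15.3 FPKM. BRCA1 fell by 0.43 and BRCA2 by 0.35, the latter with a call lost over all 12 libraries and under other settings. Of 25 damage checkpoint genes, 13 fell and none rose. CHEK1, the kinase below ATR, fell from 9.93, 10.9 and 10.6 FPKM to 6.65, 6.41 and 7.103 FPKM, WEE1 from 8.69, 9.23 and 9.26 FPKM to 5.73, 5.22 and 5.62 FPKM and H2AFX, the histone marked at breaks, from 167, 152 and 138 FPKM to 84.4, 88.2 and 83.8 FPKM. ATM (-0.16) and CHEK2 (-0.06) were not called. Of 19 end joining and break repair genes, 2 rose and 5 fell (36.8% called, near the 34.9% of all genes). PRKDC, the DNA-dependent kinase, fell from 60.7, 65.6 and 69.6 FPKM to 38.6, 42.4 and 44.1 FPKM, XRCC6 (Ku70) from 294, 288 and 295 FPKM to 196, 192 and 192 FPKM and PARP1 from 73.4, 71.2 and 71.97 FPKM to 56.8, 55.9 and 55.5 FPKM. PARP3 (0.58) and APTX (0.39) rose. TDP1, which removes trapped topoisomerase I, was not called (-0.13).

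Genes of drug handling changed in both directions. TOP1, the target of CPT-11, fell from 100.9, 104 and 112 FPKM to 76.6, 79.99 and 83.1 FPKM (-0.40 ± 0.06, adjusted p = 0.0017). CES2, the carboxylesterase that activates CPT-11, rose from 8.19, 8.48 and 7.97 FPKM to 17.6, 17.3 and 16.3 FPKM (0.97 ± 0.05, adjusted p = 4.4e-05), with CPT-11 alone at 15.8, 15.9 and 17.4 FPKM. Of 13 genes tested of CPT-11 target and handling, 3 rose (23.1%, against 17.7% of all genes) and 4 fell (30.8%, against 17.2%). ABCC3 rose (0.47), ABCC4 fell (-0.44), and ABCG2, an exporter of the active metabolite, was not called (0.32 ± 0.11, adjusted p = 0.057). SLFN11, which sensitises cells to topoisomerase poisons, had 0 reads in untreated and 3 in all treated libraries. Of 5 lovastatin handling genes tested, SLC16A4 fell (-0.39, adjusted p = 0.049), a call lost under some settings, and the others were not called.

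The study's title concerns DNA damage and the cGAS-STING pathway. TMEM173 (STING) stood at 4.504, 4.16 and 4.05 FPKM in untreated libraries, 8.69, 7.604 and 10.4 FPKM with CPT-11 alone and 11.2, 10.8 and 10.1 FPKM with both drugs, a rise of 1.158 ± 0.07 over untreated cells (adjusted p = 5.1e-05). Both treated groups lay above all untreated libraries. CGAS, the sensor itself, had 5 reads in all untreated and 10 in all treated libraries, too few to test. Of 18 sensing genes tested, 5 rose and 1 fell, a share of rises of 27.8% against 17.7% of all genes. NLRX1, a mitochondrial regulator of STING signalling, rose from 5.21, 4.59 and 4.47 FPKM to 9.63, 9.56 and 8.42 FPKM, TRIM32 from 11.2, 11.2 and 12.1 FPKM to 15.1, 15.7 and 15.5 FPKM and IRF7 from 4.73, 4.99 and 4.25 FPKM to 6.78, 7.12 and 8.02 FPKM, the last with a call lost with the GC and length correction without untreated replicate 1. TBK1 (-0.13) and IRF3 (0.04), the kinase and factor below STING, were not called. Reads of IFNB1, the interferon beta gene, numbered 3 over all untreated and 15 over all treated libraries (5, 8 and 2), too few to test.

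Interferon-stimulated genes rose in the main. Of 36 tested, 23 rose (63.9%, against 17.7% of all genes) and none fell, with a median of 0.37. The median with CPT-11 alone was also 0.37, over 37 members tested there. Over the settings tried, 15 to 26 rose and at most 1 fell. ISG15, a ubiquitin-like protein, stood at 185, 160.5 and 132 FPKM before and 416, 403 and 357 FPKM after treatment (1.305 ± 0.12, adjusted p = 0.00031). OASL, an antiviral protein, rose from 11.1, 11.7 and 10.5 FPKM to 24.7, 23.6 and 22.99 FPKM, IFIT1 from 11.4, 11.5 and 10.9 FPKM to 18.9, 18.4 and 18.2 FPKM and ISG20, an RNA exonuclease, from 1.51, 1.47 and 1.33 FPKM to 3.301, 3.08 and 3.27 FPKM. OASL was also above CPT-11 alone (17.9, 17.1 and 18.4 FPKM), by 0.40 ± 0.06 (adjusted p = 0.013). IFI6 rose by 1.28. MX1 (0.14), IFI27 (0.06) and IRF9 (-0.12) were not called.

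NF-kB targets and cytokines rose in 17 of 22 members tested (77.3%, against 17.7% of all genes), and 1 fell. The median was 0.45, against 0.25 with CPT-11 alone over 24 members tested there. Over the settings tried, 10 to 18 rose. CXCL8, the neutrophil chemokine IL-8, rose from 2.4, 3.61 and 2.47 FPKM to 6.35, 6.04 and 6.83 FPKM (0.97 ± 0.12). TNFAIP2 rose from 17.1, 15.3 and 14.8 FPKM to 28.5, 29.2 and 29.2 FPKM and BIRC3, an inhibitor of apoptosis, from 2.25, 2.33 and 2.54 FPKM to 4.06, 4.29 and 4.41 FPKM. CXCL10, a T cell chemokine, was low and rose from 0.999, 0.751 and 0.864 FPKM to 2.29, 1.48 and 2.47 FPKM (adjusted p = 0.006), and CCL5 from 1.74, 2.13 and 1.12 FPKM to 2.59, 2.63 and 3.51 FPKM (adjusted p = 0.028), a call lost under some settings. NFKB1, the p105 precursor, was the fall (-0.32).

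Ligands read by NK and T cells rose in 10 of 18 members and fell in 1. CEACAM1, an inhibitory adhesion molecule, rose from 0.488, 0.537 and 0.736 FPKM to 5.43, 5.37 and 5.999 FPKM and stood at 5.08, 6.61 and 5.21 FPKM with CPT-11 alone. The NKG2D ligands ULBP2 (from 8.09, 7.48 and 8.64 to 19.6, 17.8 and 18.7 FPKM) and MICA (from 18.9, 16.1 and 16.3 to 28.5, 28.9 and 29.9 FPKM) rose. MICA was also above CPT-11 alone (19.2, 19.7 and 20.7 FPKM), by 0.53 ± 0.06 (adjusted p = 0.0016). TNFSF9, the ligand of 4-1BB, a co-stimulatory receptor of T cells, rose from 17.8, 14.02 and 12.98 FPKM to 43.98, 41.1 and 35.6 FPKM. The fall was ULBP1 (-0.44), a call lost with scaling to library totals and without untreated replicate 1 or 2 or treated replicate 1 or 3. CD274, which encodes PD-L1, rose (0.44), with the call lost when no filter was used. Of 19 antigen presentation genes, 8 rose and 2 fell. TAP1, the peptide transporter, rose from 9.86, 10.1 and 8.98 FPKM to 24.03, 22.9 and 22.7 FPKM and HLA-B from 40.7, 39.1 and 35.9 FPKM to 59.9, 52.5 and 54.5 FPKM; HLA genes share sequence, so their split is uncertain. The chaperone PDIA3 fell (-0.29).

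Signalling targets moved in both directions. Of 27 ERK pathway targets 11 rose and 5 fell (59.3% called, against 34.9% of all genes). TGFA, an EGF receptor ligand, rose from 13.3, 14.6 and 13.5 FPKM to 23.03, 23.2 and 24.8 FPKM, and EREG, another such ligand, fell from 123, 131 and 138 FPKM to 88.99, 91.6 and 93.5 FPKM. PTPN11, which encodes SHP2, fell from 53.4, 53.8 and 55.5 FPKM to 43.4, 43.2 and 45.4 FPKM (-0.30 ± 0.04, adjusted p = 0.0021). MYC fell from 104, 98.3 and 92.2 FPKM to 81, 75.6 and 78.4 FPKM (-0.32 ± 0.06). Of 20 AP-1 and immediate early genes, 12 rose and none fell. ATF3 rose from 8.36, 7.57 and 7.93 FPKM to 22.5, 21.4 and 20.2 FPKM (1.32 ± 0.06) and JUNB from 41.4, 37.5 and 33.9 FPKM to 67.8, 66.3 and 55.8 FPKM, while FOS (0.08) and EGR1 (-0.17) were not called.

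Of 22 YAP and TAZ targets tested, 9 rose and 4 fell (59.1% called, against 34.9% of all genes). CYR61, a matrix protein, rose from 5.51, 5.88 and 6.37 FPKM to 12.1, 11.9 and 10.8 FPKM, CTGF by 0.69 and AJUBA by 0.73, and TEAD1, the factor through which YAP acts, fell from 28.4, 30.6 and 32.3 FPKM to 13.2, 14.6 and 15.5 FPKM. Of 18 Wnt and stem cell genes 6 rose and 3 fell (50% called). EPHB3 rose from 2.71, 1.96 and 2.78 FPKM to 6.04, 6.09 and 6.63 FPKM, and AXIN2 was not called (-0.18). LGR5, the intestinal stem cell receptor, had 3 reads in all untreated and 19 in all treated libraries and was not tested. Of 13 BMP and TGF-beta targets 8 rose and none fell, though 4 rose without untreated replicate 2 or without treated replicate 2 and 5 without treated replicate 1.

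**Figure D4:**
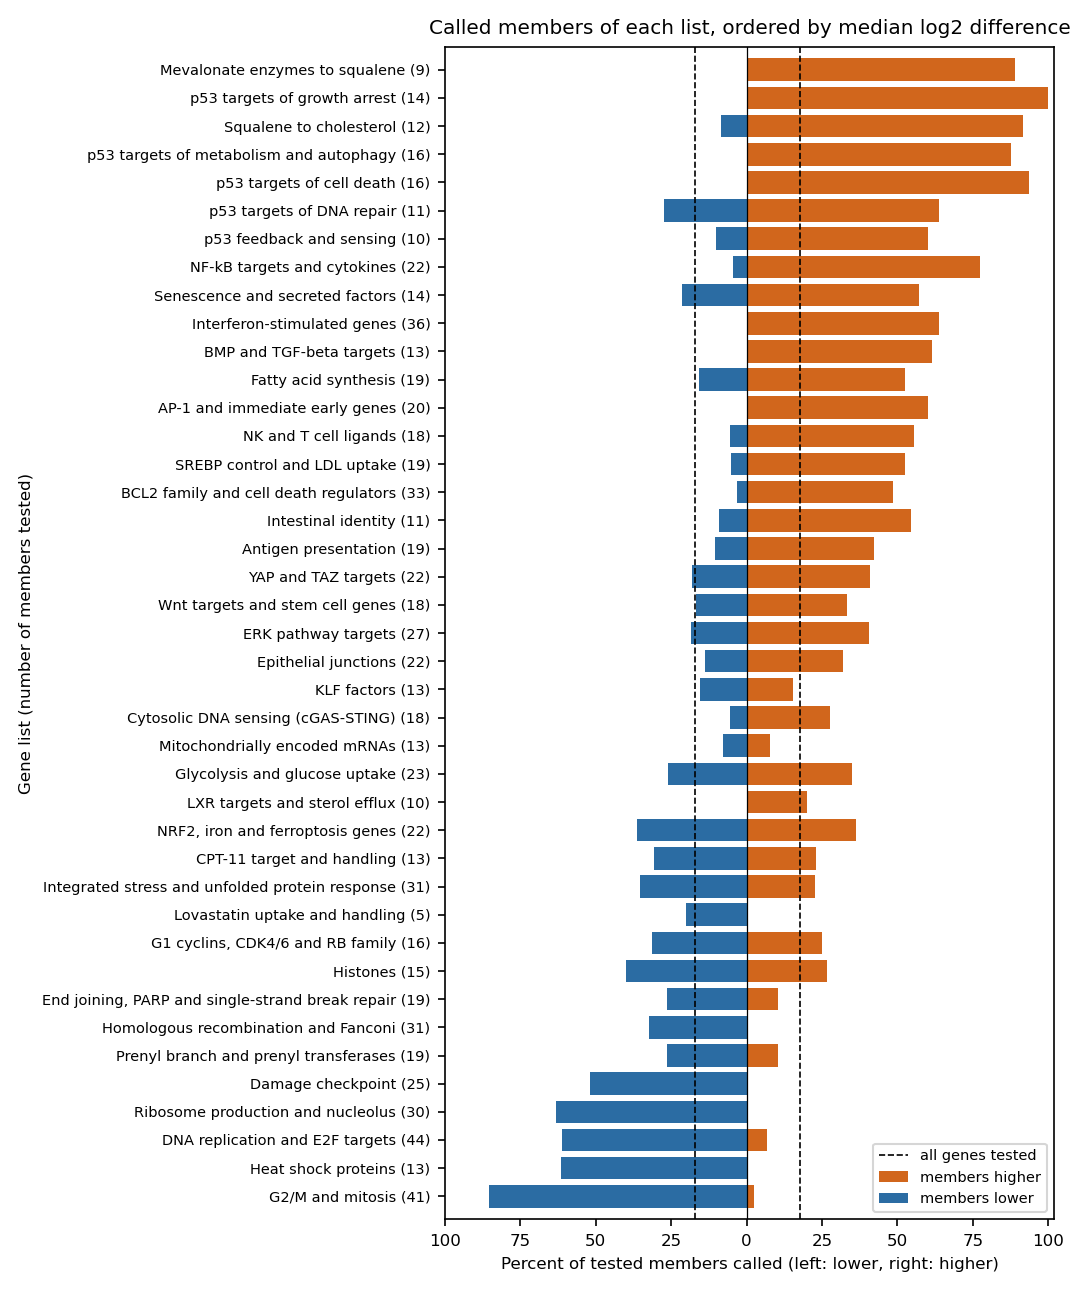
For each of 41 gene lists, bars give the percent of tested members that rose (orange, right) or fell (blue, left), in order of the list's median log2 difference, with the number tested in brackets. Dashed lines mark 17.7% and 17.2%, the shares of all 16954 genes tested; the mevalonate and p53 lists are at the top and G2/M and mitosis at the bottom. Some genes stand in several lists.

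Genes of heat shock proteins and ribosome production included many that fell. Of 13 heat shock proteins tested, 8 fell and none rose, with a median of -0.39. Without untreated replicate 1, and with scaling to library totals, 6 fell and 1 rose. HSP90AA1, the inducible HSP90, fell from 929.8, 1058 and 1112 FPKM to 589, 571 and 584 FPKM (-0.83 ± 0.09), HSPD1, the mitochondrial chaperonin, from 366, 363 and 381 FPKM to 259.9, 256 and 264 FPKM and HSPA8 from 528, 572 and 597 FPKM to 382, 371 and 391 FPKM. Of 30 ribosome production genes, 19 fell and none rose, with a median of -0.24. NPM1, a nucleolar chaperone, fell from 383, 427 and 441 FPKM to 251, 230.2 and 236 FPKM, and NCL, nucleolin, from 212, 214 and 219 FPKM to 142, 139 and 146 FPKM. Several of these genes have processed copies elsewhere in the genome, which can share their reads. Of 81 ribosomal protein genes, 14 rose (17.3%, near the 17.7% of all genes) and 3 fell (3.70%, against 17.2%).

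The integrated stress and unfolded protein response did not move one way. Of 31 genes, 7 rose and 11 fell, and the falls were 6 without untreated replicate 2, 7 without treated replicate 2 and 7 with scaling to library totals. SLC7A5, an amino acid transporter, fell from 145, 137 and 131 FPKM to 79.1, 76.5 and 76.6 FPKM and SLC7A11, the cystine transporter, from 14.01, 14.9 and 15.1 FPKM to 8.19, 8.796 and 9.24 FPKM. DDIT3 (CHOP) was at 12.1, 13.7 and 12.2 FPKM before and 14.3, 10.9 and 10.2 FPKM after treatment, with overlapping groups (-0.10 ± 0.12, adjusted p = 0.55). Of 22 NRF2, iron and ferroptosis genes, 8 rose and 8 fell, with 5 falls without untreated replicate 2 or without treated replicate 2. HMOX1, heme oxygenase, rose from 12.2, 10.9 and 10.96 FPKM to 23.8, 23 and 22.2 FPKM and was above CPT-11 alone by 0.53 ± 0.10 (adjusted p = 0.045). SAT1, a polyamine acetyltransferase, rose from 136, 136 and 134 FPKM to 259, 242 and 242 FPKM, and NQO1 fell from 165, 164 and 163 FPKM to 129.6, 118 and 123 FPKM. GPX4, the lipid peroxide reductase, fell (-0.46).

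Of 23 glycolysis genes, 8 rose and 6 fell (60.9% called, against 34.9% of all genes). ALDOC rose from 13, 13.96 and 12.6 FPKM to 24.8, 22.8 and 26.1 FPKM, with CPT-11 alone at 12, 11.4 and 12.6 FPKM, not above untreated cells. LDHA, lactate dehydrogenase, fell from 139.5, 147 and 150 FPKM to 104, 96.7 and 101 FPKM. Of 13 mitochondrially encoded mRNAs, MT-ND3 rose (0.61 ± 0.15) and MT-ATP8 fell (-0.65 ± 0.14), both with calls lost under some settings. The other 11 were not called, a called share of 15.4% against 34.9% of all genes. Of 79 nuclear genes of oxidative phosphorylation, 15 rose and 4 fell.

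Identity genes shifted modestly. Of 11 intestinal genes tested, 6 rose and 1 fell. KRT20, a keratin of differentiated colonocytes, was low and rose from 0.524, 0.649 and 0.5505 FPKM to 1.62, 1.55 and 1.402 FPKM, KRT19 rose from 394, 375 and 348 FPKM to 627, 594 and 575 FPKM, and CA2, carbonic anhydrase 2, from 12.7, 11.9 and 10.7 FPKM to 34.2, 29.2 and 28.9 FPKM. Of 22 junction genes 7 rose and 3 fell, with CLDN4 rising from 31.6, 28.9 and 25.5 FPKM to 50.9, 48.2 and 46.96 FPKM and CDH1, E-cadherin, not called (0.14). Of 14 senescence genes tested, 8 rose and 3 fell. LMNB1, the lamin that is lost in senescent cells, fell from 70.8, 68.1 and 71.9 FPKM to 34.2, 33.5 and 36.2 FPKM (-1.001 ± 0.05), beside HMGB1 (-0.70) and HMGB2 (-0.71). Of 15 histone genes tested, 4 rose and 6 fell, with 3 falls without untreated replicate 2 or without treated replicate 2. HIST2H2AC fell from 3.37, 3.88 and 5.04 FPKM to 0.785, 0.478 and 0.809 FPKM and HIST1H2BD rose from 7.69, 5.58 and 6.14 FPKM to 11.4, 10.99 and 11.02 FPKM; histone genes are near-identical copies, so their split is uncertain.

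Which of these changes differed from CPT-11 alone was tested over all 12 libraries, where 71 of 18062 genes were higher (0.393%) and 13 lower (0.0720%) with lovastatin plus CPT-11. Replicate 3 of CPT-11 alone stood apart from the other two, with the largest distance to its own group of these libraries. Without it, 2876 genes were higher (16.0%) and 2588 lower (14.4%) of 17970. Leaving out any other library of either group gave 41 to 46 higher and at most 4 lower. Replicates 1 and 2 of CPT-11 alone had slopes of the log2 difference from untreated on gene GC content of -0.0722 and -0.101. In the lovastatin plus CPT-11 libraries these slopes, per 10 percentage points, were 0.103 to 0.164. Without replicate 3 the groups therefore also differ in this library trend. Its part in the values without replicate 3, here and below, was not tested. CPT-11 alone against untreated cells had 1598 higher (8.85%) and 1391 lower (7.70%). This comparison and those with untreated cells share libraries, so their values are given side by side only.

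Sterol genes differed from CPT-11 alone under both versions. Of the 9 mevalonate enzymes 8 were higher than with CPT-11 alone, and 9 without replicate 3 of that group. Of the 12 later enzymes 11 were higher in both versions, and of 19 SREBP control genes 7 and then 12. HMGCS1 was higher by 1.81 ± 0.07 (adjusted p = 1.2e-07), INSIG1 by 1.75 ± 0.06, SCD by 1.21 ± 0.05 and LSS by 1.41 ± 0.10. No gene of the p53 arrest, death, repair or feedback lists was called against CPT-11 alone over all 12 libraries. Of 18 p53 targets of metabolism and autophagy tested there, 1 was higher. Without replicate 3 of CPT-11 alone, 9 of 14 arrest targets and 9 of 16 death targets were higher and 2 of each were lower. In that version 11 of the 18 metabolism and autophagy targets were higher and 1 was lower. For CDKN1A the difference from CPT-11 alone was 0.37 ± 0.08 (adjusted p = 0.098) and 0.46 ± 0.06 (adjusted p = 0.0013) without that library. MDM2 was lower than with CPT-11 alone by the second version, -0.31 ± 0.07 (adjusted p = 0.0094), and FAS likewise at -0.32 ± 0.08 (adjusted p = 0.012). Of 41 mitotic genes none was called against CPT-11 alone with all libraries, and 28 were lower without replicate 3. TMEM173 differed by 0.25 ± 0.09 (adjusted p = 0.2) with all libraries and 0.36 ± 0.07 (adjusted p = 0.0047) without replicate 3.

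Changes also varied with the genomic span of genes, taken from the coordinates in the file. Among protein-coding genes spanning under 10 kb, 756 of 2524 rose (29.95%) and 198 fell (7.85%), with a median of 0.12. Among those spanning over 300 kb, 20 of 462 rose (4.33%) and 190 fell (41.1%), with a median of -0.15. That median was 0.003 with no filter, -0.287 with a pseudocount of 0.1, -0.302 with a mean FPKM of at least 1 and -0.320 with voom. The bins between lay in order, with medians of 0.06, -0.03 and -0.11 for spans of 10 to 30, 30 to 100 and 100 to 300 kb. The same trend ran with base composition and with single libraries. The slope of the log2 difference on gene GC content, per 10 percentage points, was 0.103 to 0.164 in the treated libraries, 0.112 in untreated replicate 1, and -0.0192 and -0.0932 in the other untreated libraries, each against the remaining untreated ones. With CPT-11 alone it was -0.0722, -0.101 and 0.172. FTH1 and the small cytoplasmic RNA RN7SL2 varied between libraries too: RN7SL2 was at 155, 98.8 and 71.1 FPKM in untreated and 346, 324 and 227 FPKM in treated libraries, and FTH1 at 413, 235 and 191 FPKM against 419, 391 and 360 FPKM. With a trend over GC content and length removed, the medians were 0.036 for genes under 10 kb and -0.062 for genes over 300 kb. The part of base composition or RNA quality in the span trend was not tested further. After that correction the p53, sterol and mitotic counts stood at 14 of 14 arrest targets higher, 8 and 11 sterol enzymes higher, and 36 mitotic genes lower.

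**Figure D5:**
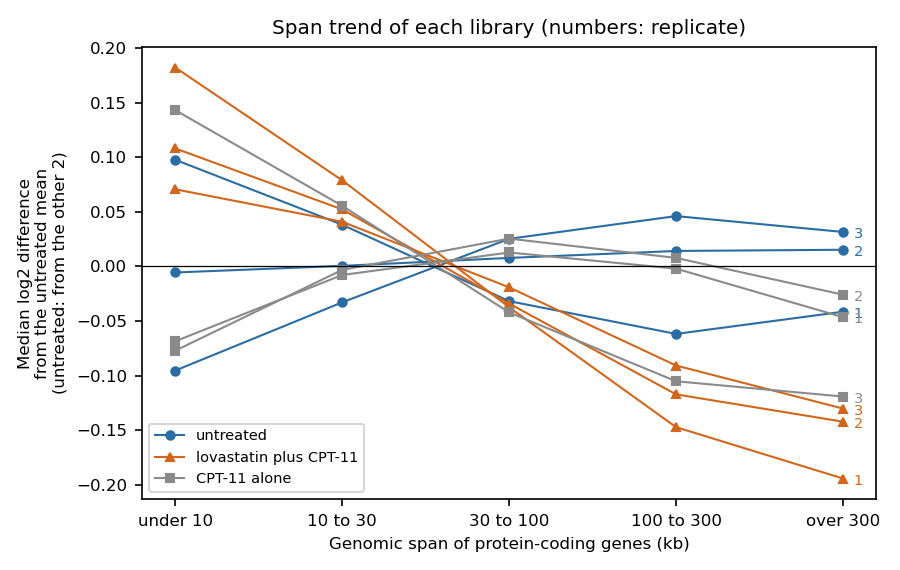
Median log2 difference of protein-coding genes in 5 bins of genomic span, per library, from the mean of the untreated libraries (for an untreated library, from the other 2); numbers at the right give the replicate. The 3 treated libraries (orange) fall from 0.0706 to 0.182 in the shortest bin to -0.194 to -0.130 in the longest; untreated replicate 1 and CPT-11 alone replicate 3 slope the same way, and the remaining untreated and CPT-11 alone libraries start below 0.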

How the data were processed

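RNA was sequenced from HCT-116 cells, and 6 of 12 libraries (untreated and lovastatin plus CPT-11, 3 each, grouped by title) were compared. Libraries were made with the NEBNext Ultra kit from total RNA, per the labels' protocols. The deposited values are FPKM, made by the authors. HISAT2 2.0.5, StringTie 1.3.3b, featureCounts 1.5.0-p3, DESeq2 1.16.1 and hg19 are named, with no role, in the submitters' processing notes; the file's gene coordinates are those of GENCODE 29 on GRCh38, and whether counting used strand is not stated there, so antisense and overlapping genes cannot be told apart. FPKM times gene length came in whole steps per library for 100% of values (within 0.01), so reads were recovered: 14715553 to 16224271 per library compared.

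A gene was tested when 3 or more libraries had 10 or more reads, after scaling to the median depth, and the sum reached 15. Tests were run with limma 3.58.1 (R 4.3.3; lmFit, eBayes with trend) on log2(FPKM + 1), two-sided, Benjamini-Hochberg threshold 0.05. The first comparison used its 6 libraries. That with CPT-11 alone used all 12 and a shared spread, with and without CPT-11 alone replicate 3. CPT-11 alone minus untreated came from the same 12-library fit. Members and gene lists (42 lists) were chosen with earlier results of these data known, so list counts and medians are descriptions with no test. Named genes were the 12 largest rises and falls among protein-coding genes called, with at least 5 FPKM in the higher group and no overlap, the members of lowest p in every list (4 at most), and a preset group of drug and pathway genes; any other gene named was chosen after its values were seen. Some genes that this rule covers, and 1 list, are not reported here. Motif windows came from RefSeq promoters. On simulated data with 16936 genes and 200 changed, the first comparison recovered 47.8% of 1.5-fold, 64.2% of 2-fold and 86.4% of 4-fold changes, and 7.69% of calls were false. The simulated share of changed genes was far below the 34.9% called in the data, so these rates may not carry over to it. The alternatives were another pseudocount, filters, scalings, a GC and length correction, voom on recovered reads, a replicate block and each library left out.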

Additional observations from a re-analysis of the deposited data

How the results depend on the processing

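Of 2934 values of 184 named genes under the alternatives, 2854 kept their direction and side of the threshold, 39 lost the call, 37 gained it and 4 changed sign. The 4 belong to genes that were not called: POR at 0.004 and RHOB at 0.012 with scaling to library totals, RHOB at 0.008 with scaling without the 20 most counted genes, and PON3 between -0.023 and 0.076 with 1 library left out, below 0 without untreated replicate 1. The 10 called genes that lost the call under at least 1 alternative were ABCA1, CCL5, ERAP2, IRF7, KLF4, LPCAT3, MT-ATP8, MT-ND3, SLC16A4 and SREBF2; of the other list members named, ACACA, BRCA2, CD274, CDK1, FANCC, FEN1, GINS4, GPAM, MBTPS2, POLK and ULBP1 did so. Against untreated cells, 1983 genes rose with no filter, which tests more genes, and leaving out 1 library gave 2041 to 3160 rises and 1932 to 3087 falls. Rises of at least 2-fold numbered 582 with a pseudocount of 0.1 and 769 with voom. Falls of at least 2-fold numbered 134 with a pseudocount of 0.1, 82 with a mean FPKM of at least 1 and 176 with voom, which called 3457 rises and 3246 falls in all. Scaling without the 20 most counted genes gave 3643 rises and 2250 falls.

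Against CPT-11 alone, genes higher numbered 160 with the GC and length correction and 36 with only the 6 libraries of both groups, and 41 to 2876 with 1 library left out. Genes lower numbered 5 with no filter, 48 with voom, 20 with scaling without the 20 most counted genes, 116 with the correction, 0 with only the 6 libraries (limma; 2076 genes had an unadjusted p below 0.05 there) and 0 to 2588 with 1 library left out. The cause of these moves was not tested. The median of genes spanning under 10 kb was 0.047 with no filter, 0.036 with the correction and 0.051 with the correction and without untreated replicate 1, added after seeing the data. That of genes over 300 kb was -0.287 with a pseudocount of 0.1, -0.302 with a mean FPKM of at least 1, -0.320 with voom, -0.062 with the correction, -0.047 with the correction and without untreated replicate 1, and 0.003 with no filter, a change of sign.

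Nothing in the labels says that a replicate number marks a shared culture or day, so the numbers were not taken as pairs. Same-numbered untreated and treated libraries had correlations of their deviations of 0.207, 0.0404 and 0.164, and differently numbered ones of -0.176 to 0.0318. With the replicate block, 3249 genes rose and 3143 fell against untreated cells, and 46 were higher and 0 lower than with CPT-11 alone (3027 genes had an unadjusted p below 0.05). Each of the 3 correlated best with its own number, a hint from the data and not from the design. Genes with few reads, such as IFNB1 and CGAS, could not be tested at this depth.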

Other observations

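Some groups outside the lists stood out when all genes were read, and since they were chosen after their values were seen, they are given as descriptions. Type III interferons had more reads after treatment: IFNL1 had 17, 18 and 21 reads in untreated, 26, 36 and 26 with CPT-11 alone and 68, 50 and 63 reads with lovastatin plus CPT-11, IFNL2 had 40 reads in all untreated and 107 in all treated libraries, and IFNL3 had 44 and 142. IFNL2 and IFNL3 are near-identical copies, so their split is uncertain. Of 11 S100 genes tested, which encode small calcium-binding proteins, 10 rose and none fell, beside 17.7% and 17.2% of all genes. Their median was 0.68, against 0.56 with CPT-11 alone. S100A6 stood at 552, 415 and 379.5 FPKM before and 1324, 973 and 888 FPKM after treatment, and S100A14 at 42.9, 40.4 and 40.8 FPKM and 87.8, 76.7 and 75.3 FPKM. With CPT-11 alone S100A6 was at 593, 654 and 927 FPKM and S100A14 at 63.7, 63.96 and 63.6 FPKM. Genes of stratified epithelium rose beside SERPINB5 and SFN: COL17A1, a hemidesmosome collagen, from 0.714, 0.607 and 0.537 FPKM to 3.58, 3.34 and 3.69 FPKM, LAMA3, a laminin chain, from 0.649, 0.705 and 0.808 FPKM to 3.65, 4.34 and 4.38 FPKM and KRT15 from 3.01, 2.83 and 3.08 FPKM to 8.19, 7.75 and 7.41 FPKM. LCE1F, a cornified envelope gene, was listed at 0 in all untreated libraries and at 3.09, 3.48 and 1.77 FPKM in the treated ones. CPT-11 alone also lay above untreated cells for these genes. COL17A1 was at 2.82, 2.92 and 3.14 FPKM there and LAMA3 at 4.23, 4.48 and 4.05 FPKM. KRT15 was at 5.13, 5.57 and 6.18 FPKM and LCE1F at 2.075, 2.56 and 3.72 FPKM.

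Of 15 olfactory receptor genes and pseudogenes of the OR51 and OR52 families on chromosome 11, within 5291761 to 5505652 (GRCh38), 12 fell and none rose, with a median of -0.77 against -0.47 with CPT-11 alone. Of all genes tested, 17.2% fell. OR51B5 went from 15.6, 17.6 and 18.5 FPKM to 7.98, 8.34 and 8.28 FPKM and OR51B4 from 21.8, 24.8 and 26.9 FPKM to 14.4, 13.3 and 14 FPKM. The span of OR51B5, 5303444 to 5505652, holds every other member apart from OR51B4 and OR51AB1P. Overlapping and neighbouring genes here can share reads, so these falls may not be separate. Of 11 mitochondrial tRNA genes with enough reads, 8 rose and 1 fell, with a median of 1.05 against 0.37 with CPT-11 alone. MT-TH stood at 34.04, 20.1 and 40.2 FPKM before and 156, 229 and 154 FPKM after treatment, and MT-TP was the fall (-0.34). Replicate 3 of CPT-11 alone, the library that stood apart, lay within or just above the range of the treated libraries for MT-TH, MT-TY, MT-TG, MT-TN, MT-TC and MT-TE. Replicates 1 and 2 lay below that range for these genes, and the remaining tRNA genes did not show this pattern. With CPT-11 alone MT-TH stood at 42.9, 35.04 and 175 FPKM, MT-TY at 22.4, 10.9 and 169 FPKM and MT-TG at 14.5, 13.4 and 65.8 FPKM. The part of library differences was not tested. Among 535 processed pseudogenes tested, 17.0% fell, near the 17.2% of all genes, and 6.36% rose against 17.7%. PTMAP2 went from 508, 594 and 535 FPKM to 166, 148 and 178 FPKM, and reads of its parent gene cannot be told apart from its own.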
